A study of Mus musculus with 16 samples.

Results

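Cells that divide switch on a shared set of genes whose products condense the chromosomes, build the spindle, attach chromosomes to it and finally split the cell. A list of 56 such mitosis and spindle genes was followed in mouse atrial tissue after myocardial infarction. A gene was measured here when a row of the deposited table carried its symbol and no other symbol, and the row with the highest mean was taken. By this rule 54 of the 56 were measured, each by 1 row, among 30145 genes measured in all. Ccnb1 (cyclin B1) had no row of its own symbol and Foxm1, which encodes a transcription factor of many division genes, was found only in a row with several symbols. These rows were not analysed here. Of the 54, 52 passed the filter on low values and were tested, and Cdc25c and Birc5 did not pass it. The list was chosen by gene function, with earlier results of these data known.

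The arrays came from wild-type C57BL/6 male mice of 10 weeks. The left anterior descending coronary artery, which supplies the ventricle, was ligated to cause the infarct, and atrial RNA was taken 1, 3 or 7 days later (4 arrays per time). The other 4 arrays were from sham mice, for which the sources used here do not give the time after surgery. Whether each array held RNA of a single mouse is not stated either, so the p-values measure the spread between these arrays. The labels call the array a Mouse Genome design, yet the row names are those of transcript clusters, so the design is uncertain. Values are log2 signals as deposited. Arrays are named by the number in their label, 1 to 4 for sham, 11 to 14 for day 1, 31 to 34 for day 3 and 71 to 74 for day 7, and values are given in that order. Genes of heart muscle were read well above background, since the mean level of 10 measured cardiomyocyte markers, among them Myl7, Sln and Nppa of the atrium, was 16.76 to 17.00 in sham and none of them lay at background.

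As background, entry into mitosis is driven by Cdk1 bound to cyclins A and B, with the Polo and Aurora kinases. Kinesin motors and spindle proteins then form the bipolar spindle, and the Ndc80 complex at the kinetochore holds its microtubules while a checkpoint built on Bub and Ttk kinases waits for full attachment. Cdc20 and the anaphase-promoting complex release the sister chromatids, and the midzone proteins part the daughter cells. Most of these genes are off in resting cells, because the DREAM complex represses them through promoter elements named CHR, and are switched on in late S phase and G2 by B-MYB and FOXM1, with NF-Y at CCAAT boxes. Adult heart muscle cells rarely divide, while fibroblasts, endothelial cells and immune cells of an injured heart can.

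Promoters of these genes are shown because nearly all the members moved together, and CHR and CCAAT are the elements named above. RefSeq windows (250 bases before to 50 after the start, build GRCm38.p6) matched 47 of the 56 genes, in 51 windows, since some genes have several starts. The CHR motif was searched as TTTGAA and the CCAAT box as CCAAT, on both strands, so the opposite strand reads TTCAAA and ATTGG, and a base may be shared where a motif ends in the T that opens the next. TTTGAA was present in 35 of the 51 member windows (68.6%) against 17.9% of all 32851 windows of the same length. CCAAT was present in 40 of 51 (78.4%) against 37.4%, and both motifs in 30 (58.8%) against 6.95%. In the 150 bases upstream of the start alone, the shares were 29.4% against 9.07% for TTTGAA and 68.6% against 24.5% for CCAAT. A match is a string of letters and not a shown site of binding. The stretches below are the 150 bases before the start, 5′ to 3′ on the strand of the gene, with each match in capitals. They were picked after the values were seen: Mki67, Top2a and Kif11 had the largest fitted day 3 differences of all members, Cdk1 is the central kinase, Cdc20 and Ncapd2 were called on day 1, and Birc5 has neither motif and was at or below background on every array. They were also picked for their motifs: only windows with both motifs in these 150 bases, or with neither in the whole window, were eligible. Both lay in these 150 bases in only 12 of the 51 member windows (23.5%, against 2.24% of all windows). Cenpa and Cenpf, also called on day 1, had no TTTGAA there and are not shown.
Mki67 (chr7:135716380-135716529, minus strand): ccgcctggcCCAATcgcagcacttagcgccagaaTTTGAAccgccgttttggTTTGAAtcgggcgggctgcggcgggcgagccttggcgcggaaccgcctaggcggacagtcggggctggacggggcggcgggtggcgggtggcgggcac
Top2a (chr11:99024190-99024339, minus strand): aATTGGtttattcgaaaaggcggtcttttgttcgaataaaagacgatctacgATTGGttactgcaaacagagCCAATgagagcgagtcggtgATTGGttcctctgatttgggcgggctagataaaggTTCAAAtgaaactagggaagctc
Kif11 (chr19:37376232-37376381, plus strand): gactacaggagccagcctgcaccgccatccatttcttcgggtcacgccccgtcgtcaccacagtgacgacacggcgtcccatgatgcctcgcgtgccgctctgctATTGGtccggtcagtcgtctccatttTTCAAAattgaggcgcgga
Cdk1 (chr10:69352913-69353062, minus strand): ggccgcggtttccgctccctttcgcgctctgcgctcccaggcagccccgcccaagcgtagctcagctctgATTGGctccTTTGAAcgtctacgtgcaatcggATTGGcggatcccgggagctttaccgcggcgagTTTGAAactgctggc
Cdc20 (chr4:118437344-118437493, minus strand): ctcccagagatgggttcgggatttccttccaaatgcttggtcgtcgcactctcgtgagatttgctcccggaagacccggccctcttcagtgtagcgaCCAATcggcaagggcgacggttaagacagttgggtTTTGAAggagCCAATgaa
Ncapd2 (chr6:125191587-125191736, minus strand): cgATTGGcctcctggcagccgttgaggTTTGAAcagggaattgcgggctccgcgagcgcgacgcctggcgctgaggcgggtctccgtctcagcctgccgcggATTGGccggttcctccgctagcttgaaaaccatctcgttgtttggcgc
Birc5 (chr11:117849087-117849236, plus strand): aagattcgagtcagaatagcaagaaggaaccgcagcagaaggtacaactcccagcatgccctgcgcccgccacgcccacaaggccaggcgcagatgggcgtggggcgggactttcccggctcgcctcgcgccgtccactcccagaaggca
In the Mki67 stretch TTTGAA began 116 and 98 bases before the start, and in that of Cdk1 71 and 15 bases before it. Top2a carried 4 CCAAT boxes and Kif11 carried 1. In Ncapd2, whose fitted day 3 difference was far smaller than that of Mki67, both motifs were present too. Neither motif was found in 6 of the 51 member windows (11.8%), against 51.7% of all windows. Besides Birc5 these were the windows of Kif18a, Melk, Nuf2, Nusap1 and Plk4, which were all called higher on day 3. The part of either motif in the rise was not tested.

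Array 31 of day 3 stood apart from the other day 3 arrays. The separation of its positive from its negative control rows (area under the curve, where 1 is complete) was 0.743, against 0.816 to 0.825 in arrays 32 to 34 and 0.755 in array 13 of day 1, the next lowest. Its median correlation with the other arrays of its group was 0.955, against 0.987 to 0.998 on the 15 others. The 10 neutrophil markers averaged 8.76 on array 31 and 5.58 to 5.68 on the other day 3 arrays, and the cardiomyocyte markers 13.97 against 16.10 to 16.25. The part of these differences in the values below was not tested, and the main day 3 results are given with and without array 31. Since 1 spread per gene was estimated over all 16 arrays, array 31 also widened the error of the comparisons that do not use it. The median of the negative control rows was taken as the background of an array: it was 4.47 to 4.53 in sham, 4.69 to 4.87 on day 1, 4.93 on array 31, 4.52 to 4.60 on the other day 3 arrays and 4.44 to 4.59 on day 7. Where a gene was at or below background on every array of the lower group, its difference is written "at least" and counted from that background. Another 11 genes were above background on 1 to 3 of the 4 sham arrays (1 for Kif2c, Cenpe, Cenpk, Nuf2, Spc25, Cdk1, Cdca8 and Hmmr, 2 for Plk1 and Ncapg, 3 for Kif23), and their fitted day 3 differences became 0.01 to 0.14 smaller when each sham array was raised to its background.

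By day 3 nearly all tested genes of the list had risen, and most were still higher than sham on day 7. Of the 52 tested genes 50 were called higher on day 3 than in sham and 0 lower, at an adjusted p under 0.05 in limma, against 23.5% of all 18420 tested genes called higher and 20.2% called lower. The median fitted difference of the members was 1.64 on the log2 scale, or 1.48 with 16 genes set at their lower bound, against 0.08 over all tested genes. On day 7, 47 were called higher than sham and 0 lower, against 14.9% and 9.92% of all tested genes, with a median of 1.03, or 0.93 at the bounds. On day 1 only 1 was called higher and 3 lower, against 24.9% and 22.2% of all tested genes, and the median was 0.10. All 3 comparisons share the same sham arrays. Kif4, Kif15, Kif18b, Cenpi, Aurkb, Melk, Nek2, Cdc20, Aspm and Nusap1 exceeded the median of all rows on 7 or 8 arrays. These were all day 3 or day 7 arrays. Racgap1 (9 arrays) and Ttk (11) also needed those days to reach the 4 arrays of the filter. These genes were thus tested because they were high there. Their calls add no separate support to these counts, or to those of day 3 or day 7 against day 1. In bulk tissue, more cells of a dividing type and more of this RNA per cell cannot be told apart.

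The size of the rise differed widely among the members. On day 3, 36 of the called genes differed from sham by at least 1 on the log2 scale, 19 by at least 2 and 8 by at least 3 by their fitted values: Mki67, Top2a, Kif11, Ccna2, Tpx2, Hmmr, Anln and Prc1. On day 7 the counts were 27, 10 and 3. All these counts use fitted values, also for genes at a lower bound. By their day 3 bounds Sgol1, Racgap1, Melk and Cenpi did not reach 1, and Bub1, Kif4 and Nusap1 did not reach 2. The shares of all tested genes at these sizes were not computed. The 4 day 3 values lay above all 4 sham values in 47 of the 52 genes (22.3% of all tested genes), and the 4 day 7 values in 49 (19.9%). Without array 31 all 52 were called higher on day 3 (26.8% of all tested genes) with a median of 1.93, and 50 on day 7 (19.5%). In sham, 24 of the 54 measured genes lay above background on all 4 arrays and 19 on none, and on day 1 the counts were 20 and 27. On day 3 they were 36 and 2, and on day 7 45 and 5.

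**Figure D1:**
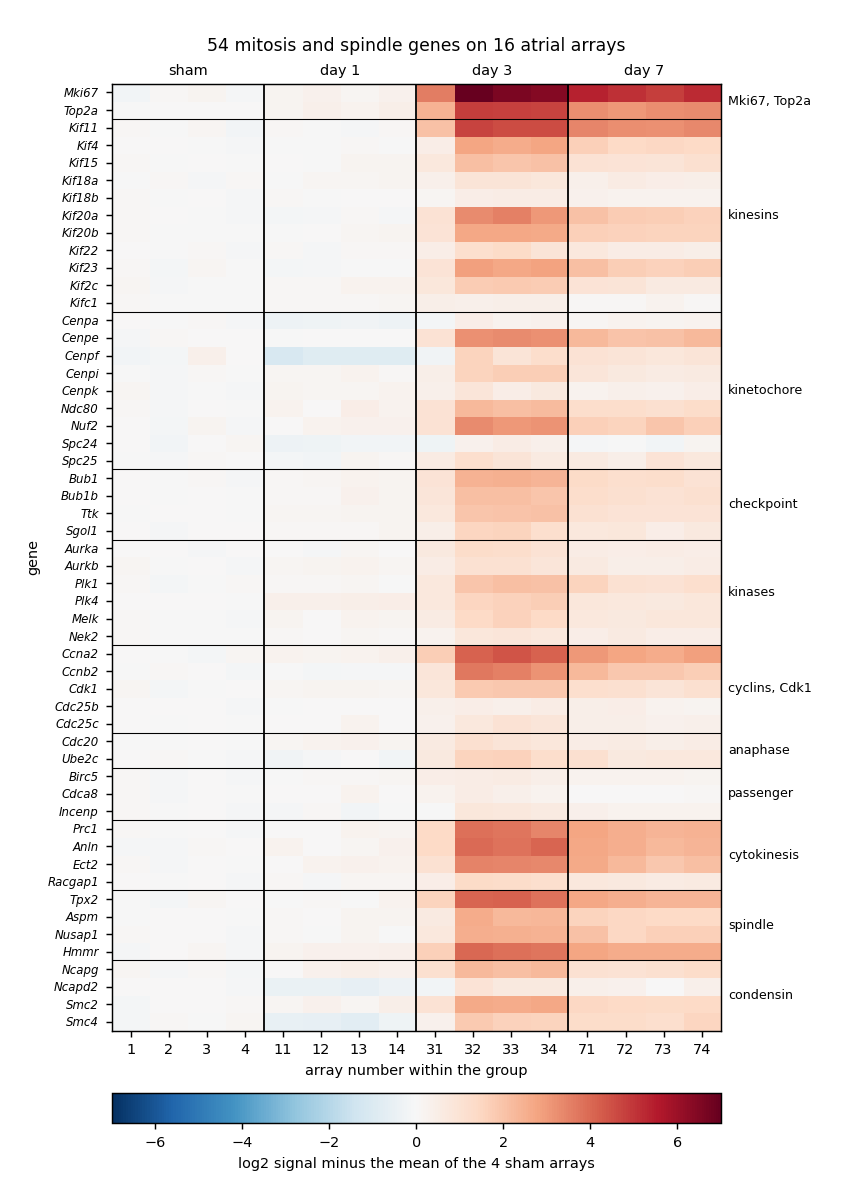
Log2 signal of the 54 measured mitosis and spindle genes on each of the 16 arrays, minus the mean of the 4 sham arrays of that gene (red higher, blue lower), with genes in rows by role and arrays in columns by group. The sham and day 1 columns are near white, arrays 32 to 34 are the reddest, and array 31 lies between day 1 and those 3 arrays in 48 of the 54 genes. The share of all tested genes with that order was not computed.

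The 2 general markers of dividing cells on the list rose on day 3 and on day 7. Mki67 encodes Ki-67, which coats the chromosomes of dividing cells and is the usual marker of cycling cells. Its log2 signal was 5.11, 5.43, 5.53 and 5.22 in sham, 5.51, 5.63, 5.47 and 5.60 on day 1, 8.89, 12.30, 11.92 and 11.77 on day 3, and 10.73, 10.44, 10.15 and 10.54 on day 7. Every day 3 and day 7 value lay above every sham and day 1 value, and array 31 was the lowest of the 8. The mean rose from 5.32 ± 0.19 in sham to 11.22 ± 1.57 on day 3 (SD, n = 4 each), a difference of 5.90 ± 0.53 (SE, adjusted p = 2.02e-06, and 6.68 ± 0.15, adjusted p = 1.1e-12, without array 31), and it was 5.15 ± 0.53 (SE, adjusted p = 1.65e-05) above sham on day 7. Top2a encodes the topoisomerase that untangles replicated sister chromatids. It read 5.06, 5.10, 5.13 and 5.10 in sham, 5.30, 5.43, 5.34 and 5.53 on day 1, 7.51, 9.93, 9.89 and 9.82 on day 3, and 8.34, 8.15, 8.33 and 8.40 on day 7. The day 1 values lay just above the sham values without overlap, and day 3 and day 7 far above both. The day 1 difference of Top2a, 0.30 ± 0.39, was not called (adjusted p = 0.542, and 0.00186 without array 31). Top2a rose by 4.19 ± 0.39 (SE, adjusted p = 2.98e-06, and 4.78 ± 0.07, adjusted p = 4.1e-14, without array 31) on day 3 and by 3.21 ± 0.39 (SE, adjusted p = 6.24e-05) on day 7.

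All 11 kinesin genes were called higher on day 3, and all 11 on day 7. These motors move along spindle microtubules or take them apart. Kif11, whose product pushes the spindle poles apart, had the largest fitted difference among them. It read 4.84, 4.70, 4.90 and 4.57 in sham, 4.81, 4.75, 4.69 and 4.84 on day 1, 6.81, 9.50, 9.34 and 9.32 on day 3, and 8.17, 8.02, 7.97 and 8.14 on day 7. No day 3 or day 7 value overlapped sham. The rise was 3.99 ± 0.43 (SE, adjusted p = 7.94e-06, and 4.64 ± 0.09, adjusted p = 2.29e-13, without array 31) on day 3 and 3.32 ± 0.43 (SE, adjusted p = 9.5e-05) on day 7. Kifc1, a motor of the opposite direction that gathers the poles, had the smallest. Its values were 5.19, 5.10, 5.10 and 5.07 in sham, 5.20, 5.19, 5.21 and 5.23 on day 1, 5.55, 5.49, 5.51 and 5.50 on day 3, and 5.22, 5.22, 5.35 and 5.22 on day 7. Here array 31 was the highest of the day 3 arrays, which it was for no other member. The day 3 difference of Kifc1 was 0.40 ± 0.05 (SE, adjusted p = 1.31e-05, and 0.39 ± 0.05, adjusted p = 2.27e-05, without array 31). Its day 7 difference of 0.14 ± 0.05 (adjusted p = 0.0372) was no longer called in 8 of the 16 fits that each left out 1 array (adjusted p up to 0.104), those without sham array 2, 3 or 4, array 33 or any day 7 array. That day 7 call was also lost under quantile normalisation, with either centring (on the gene median or on the negative controls), with no filter, without a variance trend and with only the 2 groups in the fit. Between these, Kif20a and Kif23, which act at the cleavage furrow, rose by 2.72 ± 0.39 and 2.34 ± 0.32 on day 3, and Kif20b of the same step by 2.26 ± 0.29. Kif4, which binds chromosome arms, rose by at least 1.62 and Kif15, a partner of Kif11 in holding the spindle bipolar, by at least 1.37. Kif2c, which takes microtubules apart at kinetochores, rose by 1.55 ± 0.18, Kif18a, which limits chromosome swings, by 0.75 ± 0.10, and Kif22 of the chromosome arms by at least 0.83. Kif18b was called higher on day 3 and day 7 but was near background, so no size is given, and its day 7 call was lost without sham array 4 or without array 71 (adjusted p up to 0.0587).

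Of 9 centromere and kinetochore genes 7 were called higher on day 3 and 7 on day 7. Cenpe, a motor that carries chromosomes to the spindle equator, had the largest fitted difference. It read 4.38, 4.52, 4.46 and 4.47 in sham, 4.43, 4.50, 4.47 and 4.49 on day 1, 5.46, 7.66, 7.75 and 7.67 on day 3, and 6.71, 6.45, 6.49 and 6.74 on day 7. Sham and day 1 were close to background, and day 3 and day 7 did not overlap with them. The rise was 2.68 ± 0.37 (SE, adjusted p = 5.97e-05, and 3.24 ± 0.07, adjusted p = 1.1e-12, without array 31) on day 3 and 2.14 ± 0.37 (SE, adjusted p = 0.000856) on day 7. The 4 genes of the Ndc80 complex, which grips the microtubule end, had unlike fitted differences, which were not tested against each other. Nuf2 rose by 2.63 ± 0.36 and Ndc80 by 1.89 ± 0.21 on day 3, Spc25 rose by 0.82 ± 0.14, and Spc24 was not called. Spc24 read 5.23, 5.05, 5.24 and 5.36 in sham, 4.89, 4.90, 5.04 and 5.04 on day 1, 4.94, 5.50, 5.72 and 5.59 on day 3, and 5.14, 5.19, 5.03 and 5.42 on day 7. Its day 3 arrays 32 to 34 lay above all sham arrays and array 31 below them, with a difference of 0.22 ± 0.14 (SE, adjusted p = 0.224, and 0.38 ± 0.10, adjusted p = 0.00451, without array 31). On day 7 Spc24 overlapped with sham, with a difference of −0.03 ± 0.14 (adjusted p = 0.945), whose 95% interval was −0.32 to 0.27. Cenpi and Cenpk belong to the inner kinetochore: Cenpi rose by at least 0.60 and Cenpk by 0.59 ± 0.09 on day 3. Their day 7 calls were lost in 6 fits and 1 fit that left out 1 array, with adjusted p up to 0.0713 for Cenpi (without sham array 1, 2 or 4 or array 71, 72 or 74) and 0.0568 for Cenpk (without array 74).

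Cenpa and Cenpf were called lower on day 1. Cenpa encodes the histone that marks the centromere. Its values were 6.24, 6.15, 6.30 and 6.11 in sham, 5.84, 5.88, 5.93 and 5.86 on day 1, 6.05, 6.64, 6.46 and 6.49 on day 3, and 6.33, 6.42, 6.40 and 6.47 on day 7. All 4 day 1 values lay below all 4 sham values. It fell on day 1 by 0.32 ± 0.10 (adjusted p = 0.0181, and 0.0541 without sham array 3), and differed by 0.21 ± 0.10 (adjusted p = 0.1) on day 3 and 0.21 ± 0.10 (adjusted p = 0.151) on day 7, neither of them called. Without array 31 both were called, at 0.33 ± 0.07 (adjusted p = 0.000831) and 0.21 ± 0.06 (adjusted p = 0.0153). Cenpf encodes a large kinetochore protein that builds up in G2. It read 5.57, 5.63, 6.11 and 5.78 in sham, 4.64, 4.92, 4.93 and 4.90 on day 1, 5.53, 7.31, 6.70 and 7.00 on day 3, and 6.77, 6.67, 6.55 and 6.67 on day 7. The day 1 values lay below sham without overlap, array 31 lay just below the lowest sham array, and arrays 32 to 34 and all day 7 arrays lay above sham. Cenpf fell on day 1 by 0.92 ± 0.27 (adjusted p = 0.0144), rose on day 3 by 0.86 ± 0.27 (SE, adjusted p = 0.0197, and 1.23 ± 0.14, adjusted p = 1.1e-05, without array 31) and stood above sham by 0.89 ± 0.27 (adjusted p = 0.0281) on day 7. The day 3 call of Cenpf was lost without sham array 1, array 32 or array 34 (adjusted p up to 0.0634), and the day 7 call in 6 of the 16 such fits (adjusted p up to 0.0710), those without sham array 1, 2 or 4 or array 71, 72 or 74. Both calls were also lost under quantile normalisation and with either centring.

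**Figure D2:**
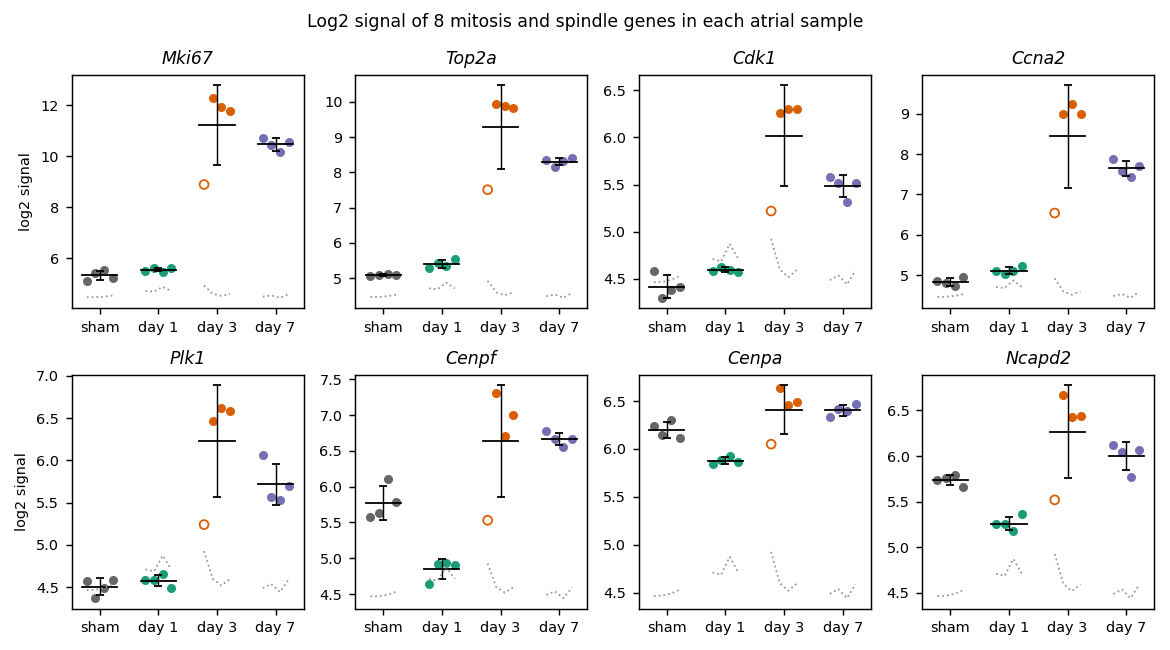
Log2 signal of 8 members on each array by group (points), with the group mean and SD (bar and whiskers, n = 4). The open point is array 31 and the dotted line is the background of each array. Cdk1 and Plk1 start close to background in sham and on day 1, and Cenpf, Cenpa and Ncapd2 are lower on day 1 than in sham.

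The checkpoint genes all rose on day 3 and all on day 7. Bub1 encodes a kinase that gathers checkpoint proteins on unattached kinetochores. Its values were 4.37, 4.36, 4.45 and 4.30 in sham, 4.43, 4.48, 4.64 and 4.54 on day 1, 5.30, 6.83, 6.85 and 6.75 on day 3, and 5.70, 5.52, 5.59 and 5.37 on day 7. All sham and day 1 values were at or below background, and the 8 later values were above it. Bub1 rose by at least 1.94 (adjusted p = 2.4e-05) on day 3 and at least 1.06 (adjusted p = 0.00398) on day 7. Bub1b, which blocks Cdc20, rose by at least 1.62 on day 3, and Ttk, the kinase at the head of the checkpoint, by at least 1.37. Sgol1, named Sgo1 in RefSeq, guards the cohesion of centromeres. It read 4.34, 4.20, 4.32 and 4.32 in sham, 4.40, 4.38, 4.35 and 4.51 on day 1, 4.72, 5.81, 5.87 and 5.45 on day 3, and 5.05, 5.07, 4.78 and 5.0 on day 7. Array 31 was the only day 3 array of Sgol1 not above background. Sgol1 rose by at least 0.97 (adjusted p = 0.000175) on day 3 and at least 0.49 (adjusted p = 0.0146) on day 7. The day 7 call of Sgol1 was lost with either centring of the arrays.

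All 6 mitotic kinase genes were called higher on day 3 and on day 7. Plk1, the Polo kinase that acts from mitotic entry to cytokinesis, had the largest fitted difference. It read 4.57, 4.37, 4.49 and 4.59 in sham, 4.58, 4.58, 4.66 and 4.49 on day 1, 5.24, 6.46, 6.62 and 6.58 on day 3, and 6.06, 5.57, 5.53 and 5.70 on day 7. Sham and day 1 overlapped near background, and arrays 32 to 34 exceeded all day 7 arrays. The rise of Plk1 was 1.72 ± 0.24 (SE, adjusted p = 5.4e-05, and 2.05 ± 0.11, adjusted p = 6.56e-09, without array 31) on day 3 and 1.21 ± 0.24 (SE, adjusted p = 0.0019) on day 7. Aurka, the kinase of the spindle poles, rose by 1.04 ± 0.11 on day 3, and Plk4, which starts centriole duplication, by 1.40 ± 0.16. Plk4 was also the member with the largest positive fitted difference on day 1, 0.39 ± 0.16, which was not called (adjusted p = 0.0542) with all arrays and was called without array 31 (adjusted p = 5.62e-05). Melk rose by at least 0.80 on day 3 and Aurkb, the kinase of the passenger complex, by at least 0.24. Aurkb was at or below background on every sham and every day 7 array, so its day 7 call has no size. Nek2 encodes a kinase that splits the centrosomes. Its values were 4.16, 4.05, 4.08 and 4.04 in sham, 4.14, 4.10, 4.21 and 4.16 on day 1, 4.35, 4.85, 4.94 and 4.80 on day 3, and 4.57, 4.71, 4.54 and 4.55 on day 7. They were at background in sham and on day 1 and did not overlap with the later values. Nek2 rose by at least 0.25 (adjusted p = 0.000133) on day 3 and by at least 0.10 (adjusted p = 0.00201) on day 7.

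Of the cyclins, Cdk1 and its activators, the 4 tested genes rose on both days. Ccna2 encodes cyclin A2, which drives S phase and the entry into mitosis. It read 4.86, 4.81, 4.73 and 4.97 in sham, 5.11, 5.03, 5.10 and 5.22 on day 1, 6.54, 8.99, 9.23 and 8.98 on day 3, and 7.88, 7.59, 7.43 and 7.70 on day 7. The day 1 values lay above sham without overlap but were not called (difference 0.27 ± 0.42, adjusted p = 0.606, and adjusted p = 0.0224 without array 31). Ccna2 rose by 3.59 ± 0.42 (SE, adjusted p = 1.58e-05, and 4.23 ± 0.10, adjusted p = 2.37e-12, without array 31) on day 3 and 2.81 ± 0.42 (SE, adjusted p = 0.0003) on day 7. Ccnb2, a B-type cyclin, rose by 2.80 ± 0.44 on day 3. Cdk1, the kinase both cyclins bind, read 4.58, 4.30, 4.38 and 4.42 in sham, 4.58, 4.63, 4.60 and 4.57 on day 1, 5.22, 6.26, 6.30 and 6.30 on day 3, and 5.58, 5.52, 5.32 and 5.52 on day 7. Cdk1 was above background on 1 sham array and no day 1 array, and on every later array. Cdk1 rose by 1.60 ± 0.19 (SE, adjusted p = 1.37e-05, and 1.87 ± 0.07, adjusted p = 1.73e-10, without array 31) on day 3 and 1.07 ± 0.19 (SE, adjusted p = 0.000885) on day 7. With the sham arrays raised to background both differences of Cdk1 were 0.10 smaller. The phosphatases that free Cdk1 of its inhibitory phosphates were near the lower limit. Cdc25b read 4.31, 4.31, 4.32 and 4.19 in sham, 4.28, 4.29, 4.30 and 4.33 on day 1, 4.66, 4.74, 4.62 and 4.78 on day 3, and 4.70, 4.74, 4.54 and 4.45 on day 7. It rose by at least 0.21 (adjusted p = 0.000137) on day 3 and at least 0.12 (adjusted p = 0.00211) on day 7. Cdc25c was not tested and was at or below background on every array. Its values were 3.46, 3.40, 3.46 and 3.43 in sham, 3.49, 3.45, 3.67 and 3.49 on day 1, 3.75, 4.18, 4.47 and 4.26 on day 3, and 3.85, 3.86, 3.75 and 3.80 on day 7. Its day 3 values were the highest, which below background gives no size.

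Of the genes of the anaphase switch, Ube2c was measured in all groups and Cdc20 was above background on day 3 alone. Ube2c encodes the ubiquitin carrier of the anaphase-promoting complex. Its values were 5.35, 5.42, 5.29 and 5.26 in sham, 5.06, 5.23, 5.38 and 5.16 on day 1, 6.02, 6.91, 6.93 and 6.55 on day 3, and 6.45, 6.03, 6.08 and 6.08 on day 7. The later values did not overlap with sham or day 1, and array 71 was the highest of day 7. Ube2c rose by 1.28 ± 0.17 (SE, adjusted p = 3.57e-05, and 1.47 ± 0.12, adjusted p = 3.51e-07, without array 31) on day 3 and 0.84 ± 0.17 (SE, adjusted p = 0.0022) on day 7. Cdc20 encodes the activator of that complex. It read 3.84, 3.85, 3.88 and 3.84 in sham, 3.97, 4.08, 4.16 and 4.06 on day 1, 4.50, 4.96, 4.77 and 4.66 on day 3, and 4.38, 4.43, 4.28 and 4.35 on day 7. The groups did not overlap, in the order sham, day 1, day 7 and day 3, but only arrays 32 to 34 exceeded background. Cdc20 rose by at least 0.23 (adjusted p = 2.37e-06) on day 3. It was the only member called higher on day 1, with both groups at background (adjusted p = 0.0402), and that call was lost in 8 of the 16 fits that left out 1 array (any sham array, array 12, 13, 14 or 71; adjusted p up to 0.115) and the difference turned to −0.05 when arrays were centred on their negative controls.

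The chromosomal passenger genes, whose products steer Aurora B on the chromosomes, rose on day 3 where tested and were not called on day 7. Incenp, the scaffold of the complex, read 5.38, 5.28, 5.32 and 5.24 in sham, 5.21, 5.37, 5.10 and 5.27 on day 1, 5.27, 6.10, 6.06 and 5.96 on day 3, and 5.66, 5.57, 5.54 and 5.55 on day 7. Array 31 lay at sham level and arrays 32 to 34 above it. Incenp rose by 0.54 ± 0.14 (SE, adjusted p = 0.0061, and 0.74 ± 0.07, adjusted p = 1.19e-06, without array 31) on day 3 and differed by 0.28 ± 0.14 (adjusted p = 0.18) on day 7, which was not called with all arrays and was called without array 31 (adjusted p = 0.00324). Cdca8, or borealin, read 4.51, 4.39, 4.45 and 4.44 in sham, 4.48, 4.46, 4.67 and 4.46 on day 1, 4.72, 4.98, 4.80 and 4.71 on day 3, and 4.47, 4.47, 4.50 and 4.54 on day 7. Day 7 was back among the sham values. Cdca8 rose by 0.36 ± 0.07 (SE, adjusted p = 0.000618, and 0.38 ± 0.07, adjusted p = 0.000451, without array 31) on day 3 and differed by 0.05 ± 0.07 (adjusted p = 0.717) on day 7, with a 95% interval of −0.10 to 0.19. Birc5, or survivin, was not tested and was at or below background on every array. It read 3.81, 3.66, 3.77 and 3.67 in sham, 3.70, 3.81, 3.81 and 3.84 on day 1, 4.20, 4.24, 4.29 and 4.16 on day 3, and 3.99, 3.95, 3.99 and 3.92 on day 7. All day 3 and day 7 values of Birc5 lay above all sham and day 1 values, which below background gives no size.

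The 4 cytokinesis genes rose on both days. Anln encodes anillin, which ties actin to the cleavage furrow. Its values were 4.47, 4.48, 4.62 and 4.59 in sham, 4.80, 4.55, 4.66 and 4.82 on day 1, 5.96, 8.53, 8.33 and 8.61 on day 3, and 7.24, 7.10, 6.80 and 6.94 on day 7. Sham and day 1 overlapped, and both later groups lay far above them. Anln rose by 3.31 ± 0.42 (SE, adjusted p = 3.11e-05, and 3.95 ± 0.10, adjusted p = 5.66e-12, without array 31) on day 3 and 2.48 ± 0.42 (SE, adjusted p = 0.000794) on day 7. Prc1, which bundles the midzone microtubules, rose by 3.11 ± 0.38 on day 3, and Ect2, which activates RhoA at the furrow, by 2.85 ± 0.41. Racgap1, which binds Kif23 in the midzone, read 4.21, 4.17, 4.22 and 4.10 in sham, 4.23, 4.11, 4.33 and 4.30 on day 1, 4.66, 5.52, 5.48 and 5.35 on day 3, and 4.91, 4.86, 4.74 and 4.78 on day 7. Its sham and day 1 values were at background. Racgap1 rose by at least 0.77 (adjusted p = 3.97e-05) on day 3 and at least 0.33 (adjusted p = 0.00419) on day 7.

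The 4 genes of spindle assembly rose on both days as well. Tpx2 encodes an activator of Aurora A that helps microtubules form near chromosomes. It read 5.08, 4.94, 5.25 and 5.14 in sham, 5.07, 5.16, 5.09 and 5.33 on day 1, 6.68, 9.17, 9.21 and 8.92 on day 3, and 7.83, 7.62, 7.50 and 7.48 on day 7. Array 31 lay below all 4 day 7 arrays and above all sham and day 1 arrays. Tpx2 rose by 3.40 ± 0.41 (SE, adjusted p = 1.82e-05, and 4.00 ± 0.11, adjusted p = 5.78e-12, without array 31) on day 3 and 2.51 ± 0.41 (SE, adjusted p = 0.000524) on day 7. Hmmr, which binds microtubules at the poles and is also known as a hyaluronan receptor, read 4.33, 4.44, 4.56 and 4.36 in sham, 4.59, 4.71, 4.72 and 4.76 on day 1, 6.10, 8.45, 8.26 and 8.15 on day 3, and 7.21, 7.01, 7.00 and 7.00 on day 7. It was above background on 1 of the 4 sham arrays. Hmmr rose by 3.32 ± 0.37 (SE, adjusted p = 9.34e-06, and 3.87 ± 0.08, adjusted p = 1.1e-12, without array 31) on day 3 and 2.63 ± 0.37 (SE, adjusted p = 0.000165) on day 7, or by 3.24 and 2.55 with the sham arrays raised to background. Its fitted day 7 difference was one of the 5 largest together with Mki67, Kif11, Top2a and Ccna2. Nusap1, a microtubule bundler, rose by at least 1.66 on day 3. Aspm encodes a pole protein. Its values were 4.10, 4.15, 4.16 and 4.11 in sham, 4.23, 4.14, 4.30 and 4.31 on day 1, 4.77, 6.71, 6.42 and 6.45 on day 3, and 5.70, 5.60, 5.50 and 5.53 on day 7. Only array 31 of the 8 later arrays was not above background. Aspm rose by at least 1.60 (adjusted p = 0.000117) on day 3 and at least 1.09 (adjusted p = 0.0025) on day 7.

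The condensin genes, whose products compact mitotic chromosomes, rose on day 3, and 3 of the 4 on day 7. Smc2 encodes a core subunit of all condensins. It read 5.70, 5.87, 5.83 and 5.88 in sham, 5.93, 6.11, 5.98 and 6.23 on day 1, 6.82, 8.46, 8.40 and 8.50 on day 3, and 7.25, 7.22, 7.18 and 7.19 on day 7. Day 1 lay above sham without overlap, and its difference of 0.24 ± 0.28 was not called (adjusted p = 0.477, and 0.00868 without array 31). Smc2 rose by 2.22 ± 0.28 (SE, adjusted p = 2.43e-05, and 2.63 ± 0.08, adjusted p = 1.42e-11, without array 31) on day 3 and 1.39 ± 0.28 (SE, adjusted p = 0.00219) on day 7. Smc4, its partner, differed by −0.54 ± 0.26 on day 1 (adjusted p = 0.095, and 0.000997 without array 31) and rose by 1.33 ± 0.26 on day 3 and 1.31 ± 0.26 on day 7. Ncapg, a subunit of condensin I, rose by 1.94 ± 0.20 on day 3. Ncapd2, another subunit of condensin I, read 5.74, 5.76, 5.79 and 5.66 in sham, 5.25, 5.25, 5.18 and 5.36 on day 1, 5.52, 6.67, 6.43 and 6.44 on day 3, and 6.12, 6.04, 5.77 and 6.07 on day 7. Its day 1 values lay below sham without overlap, and array 31 lay between day 1 and sham. Ncapd2 fell on day 1 by 0.48 ± 0.18 (adjusted p = 0.0436), rose on day 3 by 0.53 ± 0.18 (SE, adjusted p = 0.0285, and 0.78 ± 0.09, adjusted p = 7.9e-06, without array 31) and differed by 0.27 ± 0.18 (adjusted p = 0.336) on day 7. The day 1 call of Ncapd2 was lost in 11 of the 16 fits that left out 1 array (adjusted p up to 0.0995), each fit without a sham or day 1 array and those without array 71, 72 or 74. Its day 3 call was lost without sham array 1, 2 or 4 or array 32, 33 or 34 (adjusted p up to 0.0900).

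**Figure D3:**
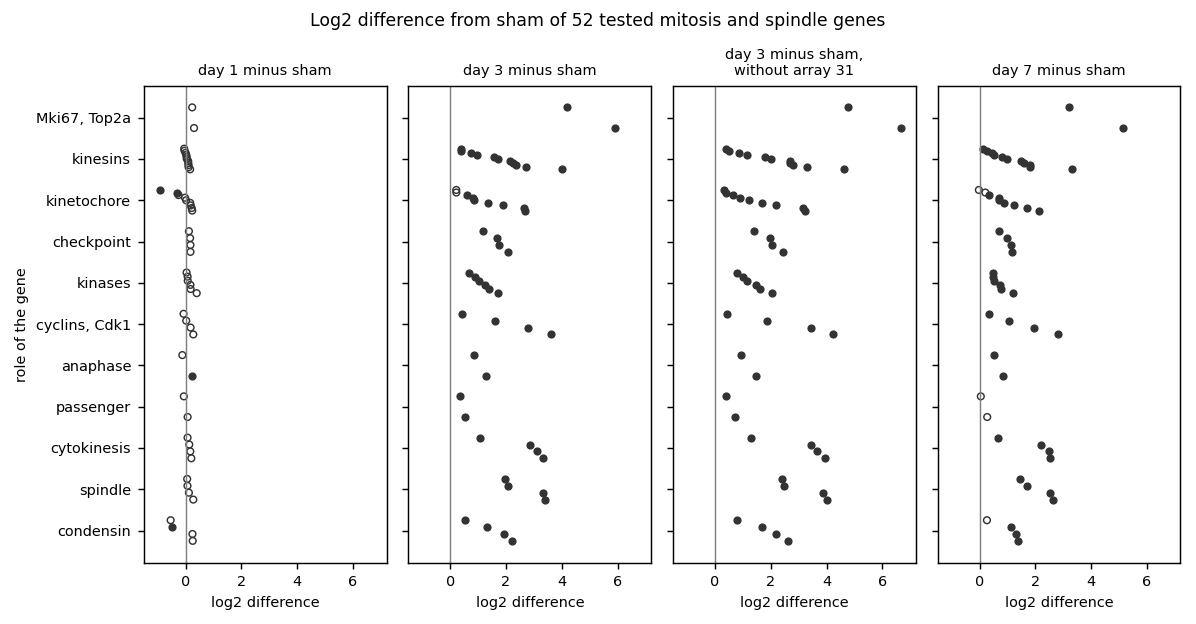
Log2 difference from sham of the 52 tested genes by role, on day 1, day 3, day 3 without array 31 and day 7 (filled points are called at an adjusted p under 0.05 in limma, open points are not). Day 1 differences lie between −0.92 and 0.39, and on day 3 Mki67 stands farthest out at 5.90.

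Nearly all tested members were higher on day 3 than on day 1. Of the 52 genes 51 were called higher on day 3 than on day 1 and 0 lower, against 5.95% and 2.16% of all tested genes, with a median of 1.59, or 1.35 with 20 genes at their bound. Spc24 was the gene not called (0.47 ± 0.14, adjusted p = 0.0533). The calls of Cdca8 without array 11 (adjusted p = 0.0530) and of Incenp without array 32, 33 or 34 (adjusted p up to 0.0592) were lost. With only the arrays of the 2 groups in the fit 28 were called, and the share of all tested genes was not computed for that fit. Without array 31 all 52 were called higher (18.8% of all tested genes). Day 7 also stood above day 1: 45 were called higher and 0 lower, against 13.6% and 12.7%, and 49 without array 31 (21.5%). Of these 45, the calls of Kif18a, Kif18b, Kif22, Kif2c, Sgol1 and Aurkb were lost in 1 to 9 of the 16 fits without 1 array (adjusted p up to 0.102), those without sham array 2 or 3 or any day 1 or day 7 array.

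How many members were called lower on day 7 than on day 3 depended on array 31 and on the scaling. With all arrays 10 genes were called lower and 0 higher, against 8.57% and 4.06% of all tested genes, with a median of −0.54. Without array 31, 47 were called lower (12.1% of all tested genes) with a median of −0.90. With all arrays kept, the 10 calls became 4 under quantile normalisation, 1 with only the 2 groups in the fit and 0 with arrays centred on the gene median or on the negative controls, while the median stayed between −0.45 and −0.39 in the 3 rescaled fits. Centring was not run without array 31. The shares of all tested genes called under quantile normalisation, either centring or only the 2 groups were not computed, so those counts describe the list alone. The 10 as deposited were Kif2c, Kifc1, Bub1, Ttk, Aurka, Aurkb, Plk4, Cdc20, Cdca8 and Ncapg. For Aurka, at −0.55 ± 0.11 (adjusted p = 0.00463), every day 7 value lay below every day 3 value, array 31 included. The calls of Bub1 and Ttk were lost in 7 of the 16 fits without 1 array, each fit without a day 7 array or without array 32, 33 or 34 (adjusted p up to 0.0941). That of Aurkb was lost in 4, without array 32, 33, 72 or 73 (adjusted p up to 0.0694). Mki67 differed by −0.75 ± 0.53 (adjusted p = 0.338) with all arrays and −1.53 without array 31 (adjusted p = 1.44e-05), and Top2a by −0.98 ± 0.39 (adjusted p = 0.117) and −1.57 (adjusted p = 3.28e-08). All 4 day 7 values lay below arrays 32 to 34 in 47 of the 52 tested genes, as in 20.7% of all tested genes. Cenpa, Cenpf, Spc25, Cdc25b and Smc4 were the genes not called lower in that comparison. Smc4 differed by −0.37 (adjusted p = 0.057) and Cenpf by −0.34 (adjusted p = 0.138).

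Array 31 lay above all day 1 arrays and below arrays 32 to 34 in 48 of the 54 genes. It was the lowest day 3 array in 50 of the 54 genes, above all day 1 arrays in 52 and above all sham arrays in 49. In 39 genes it lay below all 4 day 7 arrays as well. The background of array 31 was 4.93. Its median of all rows was 4.61, against 4.20 to 4.26 in sham and 4.29 to 4.52 on day 1. Kif4 (4.42), Cenpi (4.15), Nek2 (4.35), Cdc20 (4.50) and others were below that background and have no readable level on array 31. Only 36 of the 54 genes were above background on all 4 day 3 arrays. The part of this raised floor in these orders was not tested. Arrays 32 to 34 lay above all 12 sham, day 1 and day 7 arrays in 49 genes. On day 7, array 71 was the highest in 31 genes, array 74 in 12, array 72 in 6 and array 73 in 5. The shares of all tested genes with these orders were not computed, so these counts describe the list alone. The mean level of the 54 genes was 4.67 to 4.74 in sham, 4.71 to 4.80 on day 1, 5.48 on array 31, 6.70 to 6.82 on arrays 32 to 34 and 5.86 to 6.03 on day 7.

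Day 1 differences were small and leaned on how the arrays were scaled. Leaving array 31 out of the fit raised the day 1 calls to 13 higher and 5 lower, against 35.6% and 26.9% of all tested genes, with the same day 1 and sham values and a smaller error. The 5 lower genes were Cenpa, Cenpf, Spc24, Ncapd2 and Smc4. The median day 1 difference was 0.10 as deposited and −0.16 with arrays centred on their negative controls, whose level was higher on day 1 than in sham.

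Of the division genes that are not on the list, some rose on day 3 as well. Of 126 such genes 117 were measured and 101 tested. The filter on low values could be passed through high day 3 or day 7 arrays alone here too. How many of these genes, or of the replication and G1 genes below, did so was not counted. Calls of such genes add no separate support to the shares given for these lists. On day 3, 54 of the 101 were called higher (53.5%, against 23.5% of all tested genes) and 5 lower (4.95% against 20.2%), with a median of 0.36. On day 7, 40 were called higher (39.6% against 14.9%) and 2 lower (1.98% against 9.92%). Among 21 further kinetochore genes 14 rose on day 3 (66.7%). Each gene named here was called on day 3. Casc5, which recruits checkpoint proteins, rose by at least 2.11 and Zwilch by at least 1.39, and Cenpn rose by 1.47 ± 0.26. Of 22 spindle genes 13 rose (59.1%) and 3 fell, with Ckap2 at least 2.83 and Dlgap5 1.90 ± 0.28 higher. Cep55, which brings the final cutting machinery, rose by 2.41 ± 0.24 and belongs to this list and to that of cytokinesis. Of 11 cytokinesis genes 9 rose (81.8%), such as Shcbp1 by 2.76 ± 0.36 and Depdc1a by 2.54 ± 0.36. In the list of mitotic entry and exit 7 of 13 rose (53.8%) and 1 fell, led by Pbk (1.93 ± 0.19), Mastl (1.89 ± 0.31) and Cks1b (1.12 ± 0.12). Cks1b, a Cdk-binding protein, was also called higher on day 1, by 0.79 ± 0.12 (adjusted p = 0.000208).

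Among the checkpoint and anaphase genes off the list, 8 of 21 rose on day 3 (38.1%, against 23.5% of all tested genes) and 1 fell. Mad2l1, the checkpoint protein that holds Cdc20, rose by 1.61 ± 0.27 and Trip13, which recycles it, by 1.61 ± 0.19. The one that fell was Pttg1, which encodes securin, the inhibitor of the protease that opens cohesin: it fell by 1.51 ± 0.18 on day 1 (adjusted p = 2.84e-05), 1.38 ± 0.18 on day 3 (adjusted p = 4.52e-05) and 0.90 ± 0.18 on day 7 (adjusted p = 0.00278). Of 14 condensin and cohesin genes 4 were called higher on day 3 (28.6%), a share near the 23.5% of all tested genes. Ncapg2 (2.25 ± 0.23), Ncaph (1.37 ± 0.20) and Esco2 (at least 0.74) were among them. Without array 31, 67 of the 101 were called higher on day 3 (66.3%, against 26.8% of all tested genes).

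The genes of DNA replication, which act in the S phase before mitosis, were also higher on day 3. Of 42 tested, 34 were called higher (81.0%, against 23.5% of all tested genes) and 0 lower on day 3, with a median of 0.70, and 16 higher (38.1% against 14.9%) and 1 lower on day 7, with a median of 0.24. On day 1, 12 were called higher (28.6%) and 6 lower (14.3%), near the 24.9% and 22.2% of all tested genes. On day 7, 27 of the 42 were called lower than on day 3 with all arrays (64.3% against 8.57%) and 36 without array 31 (85.7% against 12.1%). The difference between these counts and those of the mitosis genes was not tested. Mcm6, a subunit of the replicative helicase, was 1.12 ± 0.28 higher on day 1 (adjusted p = 0.00582), 2.64 ± 0.28 on day 3 and 1.49 ± 0.28 on day 7. Mcm3 of the same helicase rose by 0.68 ± 0.27 (adjusted p = 0.0472), 1.92 ± 0.27 and 0.88 ± 0.27. Rrm1, which makes deoxynucleotides, differed by −0.24 ± 0.40 on day 1 (adjusted p = 0.632), and rose by 2.27 ± 0.40 on day 3. Of 20 genes of G1 cyclins, Cdk inhibitors and their partners, 9 rose (45.0%) and 2 fell (10.0%) on day 3. Rbl1 (1.59 ± 0.21) and Ccne2 (1.23 ± 0.20) rose on day 3, and Rbl2, which encodes the pocket protein of the DREAM complex in resting cells, fell by 1.65 ± 0.24 on day 1 (adjusted p = 0.000117), 1.42 ± 0.24 on day 3 (adjusted p = 0.000307) and 0.76 ± 0.24 on day 7 (adjusted p = 0.0315).

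**Figure D4:**
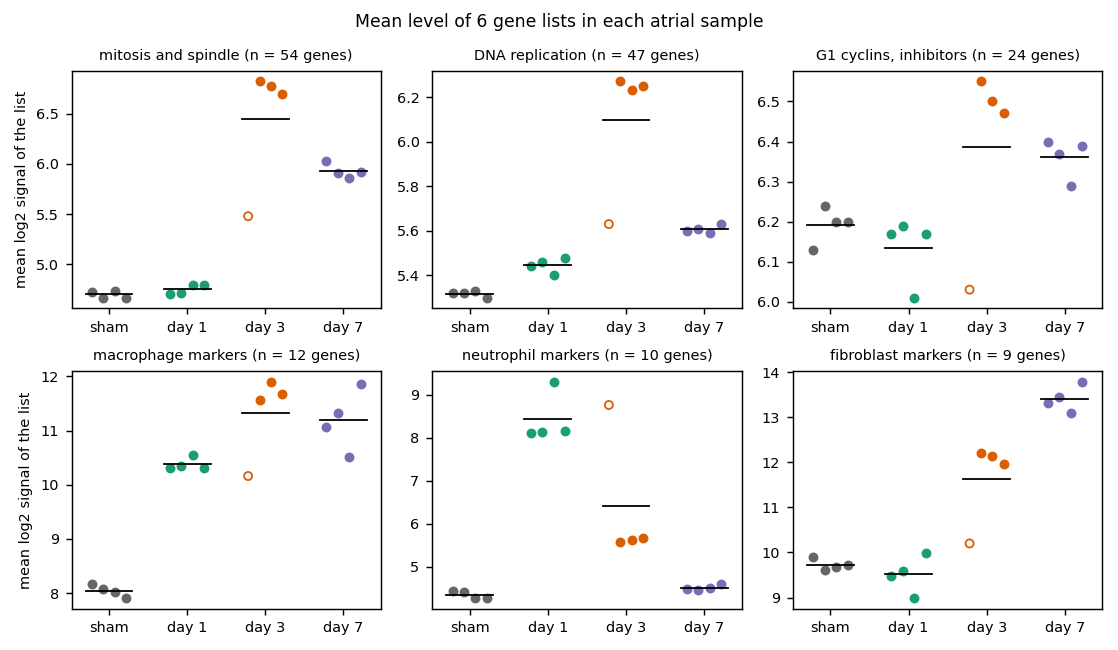
Mean log2 signal of the measured genes of 6 lists on each array by group (points; open point, array 31; line, group mean). The mitosis list is highest on arrays 32 to 34 and stays raised on day 7, the neutrophil markers are high on day 1 and on array 31, and the fibroblast markers are highest on day 7.

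Markers of some of the cell types that could carry these RNAs also moved over these days. All 12 macrophage markers were measured and none was at background: their mean level was 7.91 to 8.16 in sham, 10.31 to 10.55 on day 1, 10.16 on array 31, 11.56 to 11.90 on arrays 32 to 34 and 10.51 to 11.86 on day 7. This mean macrophage level was above sham on every day 1 array. The mean level of the mitosis list on day 1 overlapped with sham. The macrophage markers did not move alike. On day 1, 9 of the 12 were called higher than sham and 0 lower, against 24.9% and 22.2% of all tested genes. Their day 1 differences ran from 0.10 to 6.25, and those of day 7 from day 1 ran from −3.81 to 3.12. Whether macrophages carried the mitosis RNAs was not tested. The 9 measured fibroblast markers had mean levels of 9.62 to 9.91 in sham, 8.99 to 9.99 on day 1, 10.20 on array 31, 11.97 to 12.21 on arrays 32 to 34 and 13.10 to 13.79 on day 7. They did not move alike either. On day 1, 0 were called higher and 4 lower (44.4%, against 22.2% of all tested genes). On day 3, 5 were called higher (55.6% against 23.5%) and 0 lower, with differences from −0.53 to 4.69 and a median of 0.46. On day 7, 8 were called higher (88.9% against 14.9%) and 0 lower. The 10 neutrophil markers were at 4.28 to 4.43 in sham, 8.12 to 9.30 on day 1 and 4.46 to 4.61 on day 7. The 9 endothelial markers lay at 9.89 to 10.09 in sham, 9.96 to 10.19 on arrays 32 to 34 and 10.05 to 10.63 on day 7. On day 3, 2 of them were called higher (22.2%, against 23.5% of all tested genes) and 1 lower (11.1% against 20.2%). Of 10 smooth muscle and pericyte markers 0 were called higher and 3 lower on day 3. Of 8 epicardial and mesothelial markers 0 were called in either direction. All 7 measured T and B cell markers had means per array of 3.72 to 3.99, below background, and 0 were tested. The part of any of these cell types in the rise of the mitosis genes was not tested.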

How the data were processed

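Atrial RNA of 16 arrays (sham and days 1, 3 and 7 after infarction, 4 each) was measured. The deposited values are log2 signals in 72688 rows, with 0 missing. Per the submitters' processing notes the authors used Affymetrix Expression Console, and their background correction, summarisation, scaling and genome build are not given in the sources used. Rows were named through the platform annotation: 30604 rows had 1 symbol and 2146 several, and the row with the highest mean stood for a gene. Genes above the median of all rows on at least 4 of 16 arrays were tested (18420 of 30145).

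Group means were fitted with limma 3.58.1 (R 4.3.3) over all 16 arrays, with a variance trend in eBayes and Benjamini-Hochberg adjustment per comparison over all tested genes. Differences are log2 differences with SE, not folds. Intervals are 95%. The script was tested on simulated data. Values were printed for every array for Mki67, Top2a, Cdk1, the members with the largest and smallest fitted day 3 difference of each role, the 5 largest fitted day 7 differences, members called lower, and members not tested or not called on day 3. Of other lists, the 3 largest fitted day 3 differences were named.

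The members, roles and lists were chosen with earlier results of these data known. Alternatives were other scalings, filters, spread estimates, array weights and leaving out arrays. The number of arrays limits the precision.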

Additional observations from a re-analysis of the deposited data

Results flagged for a closer look

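In 216 groups of 4 values, 54 genes in 4 groups, Dixon's criterion at 95% marked 41 values as far from the rest of their group, where chance marks about 1 in 20 groups. Of these, 29 were array 31 of day 3, always as the lowest of its group. The log2 signals on array 31 were Mki67 8.89, Top2a 7.51, Kif11 6.81, Kif4 4.42, Kif15 4.90, Kif18b 4.16, Kif20b 5.75, Kif23 5.53, Kif2c 5.14, Cenpe 5.46, Cenpi 4.15, Ndc80 5.94, Nuf2 5.42, Bub1 5.30, Bub1b 5.19. Those of the other marked genes on that array were Ttk 4.94, Plk1 5.24, Ccna2 6.54, Cdk1 5.22, Incenp 5.27, Prc1 6.39, Anln 5.96, Ect2 6.10, Tpx2 6.68, Aspm 4.77, Nusap1 4.84, Hmmr 6.10, Ncapg 5.60 and Smc2 6.82. On the same array the separation of control rows, the level of negative controls and the neutrophil and cardiomyocyte markers also stood apart, and their part in these values was not tested.

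The 12 other marked values lay on 8 arrays. Array 11 of day 1 was the lowest of its group for Kif18a (4.84), Cenpf (4.64) and Ect2 (5.04). Array 12 of day 1 was the lowest of its group for Kif22 (4.26). Array 13 of day 1 was the highest of its group for Cdca8 (4.67). Array 71 of day 7 was the highest of its group for Ttk (5.26), Ube2c (6.45) and Hmmr (7.21). Array 72 of day 7 was the highest of its group for Nek2 (4.71). Array 73 of day 7 was the highest of its group for Kifc1 (5.35). Array 2 of sham was the lowest of its group for Sgol1 (4.20). Array 4 of sham was the lowest of its group for Cdc25b (4.19).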

How the results depend on the processing

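Leaving out any 1 array, 48 to 52 of the 52 genes were called higher on day 3 than in sham, with a median of 1.54 to 1.93, and 43 to 50 on day 7, with a median of 1.01 to 1.07. Over the other alternatives the day 3 count ran from 43 with negative-control centring to 52, or 38 where a filter of 12 arrays left fewer genes tested, and the day 7 count from 36 to 50, or 35 with that filter, whose day 7 median was 1.15. The filter of 12 arrays left out Kif4, Kif15, Kif18b, Cenpi, Ttk, Aurkb, Melk, Nek2, Cdc20, Racgap1, Aspm and Nusap1. Its counts are therefore not out of 52. Against day 1, day 3 gave 28 calls with only the 2 groups in the fit. The day 7 minus day 1 median of 0.93 became 1.02 under quantile normalisation, 1.07 with arrays centred on the gene median, 1.00 with the filter of 12 arrays and 1.16 centred on negative controls, an alternative added after seeing the data. The 10 genes called lower on day 7 than on day 3 became 4 under quantile normalisation, 0 with either centring, 1 with only the 2 groups and 48 with array weights (0.06 for array 31) or without arrays 31 and 13, and ran from 7 to 47 leaving out 1 array. On day 1 the count of 1 higher became 0 under quantile normalisation, either centring, no filter or the filter of 12, 9 with array weights, 13 with only the 2 groups and 7 without arrays 31 and 13, and ran from 0 to 13 leaving out 1 array. The 3 lower became 5 with array weights, only the 2 groups, negative-control centring or without arrays 31 and 13, and ran from 1 to 5. The day 1 median of 0.10 turned to −0.058 under quantile normalisation, −0.061 centred on the gene median and −0.16 centred on negative controls, and Cdc20 to −0.045 under the last. Apart from the fit without array 31, the shares of all tested genes called under these alternatives were not computed, so the counts describe the list alone. The cause of these changes was not tested. On day 3 the calls of Cenpf and Ncapd2 were lost under quantile normalisation, either centring and with only the 2 groups, that of Incenp under quantile normalisation and either centring, that of Cdca8 under either centring, and those of Kifc1 and Cdc25b with negative-control centring. On day 7 the call of Cenpf was lost under quantile normalisation and either centring, that of Sgol1 with either centring, that of Cdc25b with negative-control centring, and that of Kifc1 under those 3 scalings, no filter, no variance trend and only the 2 groups. With the 75th percentile of the negative controls as background, 3 genes in sham, 1 on day 1, 8 on day 3 and 23 on day 7 were above it on all 4 arrays. TTTGAA was in 29.4% of windows in the 150 bases upstream. No paired analysis was possible because the groups share no replicate numbers.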
